A study of Mus musculus with 20 samples.

Results

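The signals of 10 genes of neutrophil granules and of the neutrophil surface, S100a8, S100a9, Ngp, Retnlg, Camp, Ltf, Mpo, Csf3r, Cxcr2 and Clec4e, were followed over the left ventricles of 20 male C57BL/6 mice aged 2 months. Each gene was read from a transcript cluster whose platform annotation holds that gene symbol and no other, and each of the 10 genes had exactly 1 such cluster, among 34760 clusters on the array and 21640 with 1 symbol. The genes were chosen by measured values of these same arrays. S100a8, Ngp and Retnlg were among the larger differences of DOXO against sham, Clec4e was selected on the interaction, and results of DOXO against sham were known when the others were chosen. All 10 are described below with no filter on low signals. In 4 of the 5 comparisons their values are therefore a description with no test.

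The arrays held 6 FA-DOXO, 6 DOXO, 4 FA-sham and 4 sham mice. FA-DOXO mice were injected intraperitoneally with 20 mg/kg doxorubicin (DOXO), an anthracycline chemotherapeutic that damages the heart, and ate folic acid (FA) at 10 mg/day. DOXO mice had the same injection with placebo. FA-sham mice had saline with FA, and sham mice had saline with placebo. FA or placebo was given from 7 days before the injection until the end of the experiment at 10 days. The model is 1 acute dose in young males of 1 strain. All transcripts of the ventricle were read together, so that fewer cells of a type and less RNA per cell cannot be told apart. The paper reports that mice died after doxorubicin before the experiment ended, and that fewer died with FA. Hearts taken at the end come from survivors, so the FA-DOXO and DOXO groups may be differently selected. The part of survival in the differences below was not tested. The p-values below set differences of group means against the spread between these mice.

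Neutrophils are short-lived leucocytes that fill their granules in the bone marrow in a fixed order, azurophil granules at the promyelocyte stage, then specific and gelatinase granules, and carry these proteins into tissue. Transcripts of granule proteins such as Mpo and Ltf are mostly made before the cell leaves the marrow, whereas S100a8 and S100a9 transcripts stay abundant in circulating neutrophils and are also found in monocytes. The signal proteins of this group bind receptors shared by many cells, such as Tlr4, and the granule proteins act on microbes and on matrix.

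The arrays differed in a way that touches every gene below. The standard deviation (SD) of all log2 signals on an array was between 0.86 and 1.50, and 8 arrays exceeded 1.1. These wide arrays came from FA-DOXO mice 5 and 6, DOXO mice 1 and 5, FA-sham mouse 4 and sham mice 1, 2 and 3, and the other 12 are called narrow. On a wide array clusters lie farther above and below the array median, which was between 6.23 and 6.66 over the 20 mice. A second scale was therefore given beside the log2 signal, the percentile of a cluster among all clusters of its own array. Cardiomyocyte markers, the defining genes of the tissue, had a mean percentile between 92.5% and 99.8% over the 20 arrays. Their mean log2 signal differed far more, at 8.23 to 11.77 in FA-sham mice and 9.71 to 13.09 in sham mice. It was 8.33 to 12.33 in FA-DOXO mice and 9.00 to 12.83 in DOXO mice. The mean signal of the 8 of 11 listed neutrophil markers outside the 10 genes with a cluster of their own was 6.19 to 6.57 in FA-DOXO mice, 6.13 to 6.55 in DOXO mice, 6.30 to 6.60 in FA-sham mice and 5.78 to 6.47 in sham mice. Ly6g, the surface antigen that defines mouse neutrophils, averaged 6.44 ± 0.25 in FA-DOXO, 6.34 ± 0.36 in DOXO (SD, n = 6 each), 6.68 ± 0.19 in FA-sham and 6.01 ± 0.42 in sham mice (SD, n = 4 each), close to or below the array medians in most mice. Its groups overlapped, and the part that the number of neutrophils has in the values below was not tested.

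The sequence before the annotated start of transcription was read for the 10 genes from RefSeq's table of promoters (GRCm38.p6), and 4 are shown, for the pair S100a8 and S100a9, for Ngp, which with S100a8 had the largest differences of DOXO against sham, and for Mpo, which had the smallest there. Capitals mark matches to the letters TTNNGNAA (C/EBP, factors of granulocyte differentiation) or GAGGAAG (PU.1, a factor of myeloid cells), each on both strands, and to TATAAA on the strand of the gene. Each run holds the 250 bases before the start, 5′ to 3′ on the strand of the gene.
S100a8, chr3:90668821-90669070, plus strand: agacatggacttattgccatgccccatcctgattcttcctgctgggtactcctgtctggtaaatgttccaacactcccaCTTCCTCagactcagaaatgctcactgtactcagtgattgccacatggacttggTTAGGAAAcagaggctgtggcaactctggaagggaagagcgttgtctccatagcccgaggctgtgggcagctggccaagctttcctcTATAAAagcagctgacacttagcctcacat
S100a9, chr3:90695722-90695971, minus strand: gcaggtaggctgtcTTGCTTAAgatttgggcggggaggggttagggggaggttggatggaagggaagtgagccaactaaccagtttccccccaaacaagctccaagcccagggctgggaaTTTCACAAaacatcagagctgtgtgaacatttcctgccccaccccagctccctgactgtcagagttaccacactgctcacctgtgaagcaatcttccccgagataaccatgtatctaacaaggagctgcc
Ngp, chr9:110419558-110419807, plus strand: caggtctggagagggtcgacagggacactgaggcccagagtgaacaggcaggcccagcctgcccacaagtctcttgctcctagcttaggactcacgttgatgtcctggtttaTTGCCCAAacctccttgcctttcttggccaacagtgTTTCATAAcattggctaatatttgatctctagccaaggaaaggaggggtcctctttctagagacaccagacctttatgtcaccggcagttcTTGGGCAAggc
Mpo, chr11:87793534-87793783, plus strand: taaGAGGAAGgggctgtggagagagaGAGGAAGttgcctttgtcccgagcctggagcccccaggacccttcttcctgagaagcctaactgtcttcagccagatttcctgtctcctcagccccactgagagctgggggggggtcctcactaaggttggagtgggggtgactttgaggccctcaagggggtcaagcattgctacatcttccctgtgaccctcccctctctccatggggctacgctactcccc
The TTNNGNAA letters occurred before 6 of the 10 genes, S100a8, S100a9, Retnlg, Ngp, Ltf and Clec4e, and in 36.8% of 32851 promoters of the same length. Ngp held 3 matches, at -138, -102 and -11 counted from the start. GAGGAAG occurred before S100a8, Mpo and Csf3r, against 10.6% of all promoters, and TATAAA before S100a8 at -30 and Clec4e at -29, against 7.59%. No marked match overlapped another in the sequences shown, and a match is a run of letters, not a measured binding site. S100a8 and S100a9 lie next to each other on chromosome 3 with 0 protein-coding genes between them. Camp, Ngp and Ltf share chromosome 9, with 8 protein-coding genes between Camp and Ngp and 20 between Ngp and Ltf.

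S100a8 codes for a subunit of calprotectin, the calcium-binding and zinc-binding complex that fills the neutrophil cytosol and is a ligand of Tlr4. Its log2 signal was 6.58, 7.02 and 7.45 (lowest, median and highest) in FA-DOXO mice and 6.62, 6.83 and 8.61 in DOXO mice. It was 6.43, 6.14, 6.37 and 5.99 in the 4 FA-sham mice and 5.88, 5.25, 5.62 and 6.27 in the 4 sham mice. Every doxorubicin-treated mouse, with or without FA, thus lay above every mouse given saline, and DOXO mouse 1 stood above all others. This is a description, since DOXO against sham chose the gene. The share of all clusters with this division over all groups was not computed. Group means were 6.99 ± 0.36 in FA-DOXO and 7.08 ± 0.76 in DOXO (SD, n = 6 each), 6.23 ± 0.20 in FA-sham and 5.76 ± 0.43 in sham mice (SD, n = 4 each).

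The question that the chosen genes leave free is whether they differed with doxorubicin under FA as well, since FA-DOXO and FA-sham mice share no animal with DOXO against sham. Clec4e was left out of this test because the interaction that selected it holds these mice. S100a8 was 1.69-fold higher in FA-DOXO than in FA-sham mice (log2 difference 0.76, SE 0.31). The exact permutation test over mice gave p = 0.00952 (two-sided, n = 6 and 4, not adjusted for the 9 genes tested), the smallest p that these group sizes allow, with 6 of 6 FA-DOXO mice above all FA-sham mice. The exact tests below are two-sided too. The limma fit, which pools the spread of all 4 groups, gave an unadjusted p of 0.0265, which misses the study's threshold of 0.01, and a Benjamini-Hochberg adjusted p of 0.983. The residual SD of S100a8 in that fit was 0.51, and the widest group, DOXO, is not part of the comparison. With FA-DOXO and FA-sham mice fitted alone, the limma p was 0.00199. Without DOXO mice 1 and 5, a setting chosen after seeing the data, it was 0.00118. The adjusted p was 0.810 and 0.917 in these 2 fits. The difference of 0.76 could not change in them, since DOXO mice do not enter it. Other fits missed the threshold of 0.01, with a limma p of 0.0304 with array SD as covariate and 0.0699 without FA-sham mouse 4.

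The S100a8 difference was positive on both kinds of array, 0.75 on wide arrays (2 FA-DOXO mice and 1 FA-sham mouse) and 0.80 on narrow arrays (4 FA-DOXO and 3 FA-sham mice). On the percentile scale S100a8 moved to a mean of 70.7% in FA-DOXO mice, against 26.0% in FA-sham mice. Without FA it averaged 65.6% in DOXO mice and 20.1% in sham mice, a description only. Over all clusters, 0.371% had every FA-DOXO mouse above every FA-sham mouse in log2 signal, and 0.44% did so in percentile. Of the 9 genes tested 1, S100a8, did so on each scale.

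**Figure D1:**
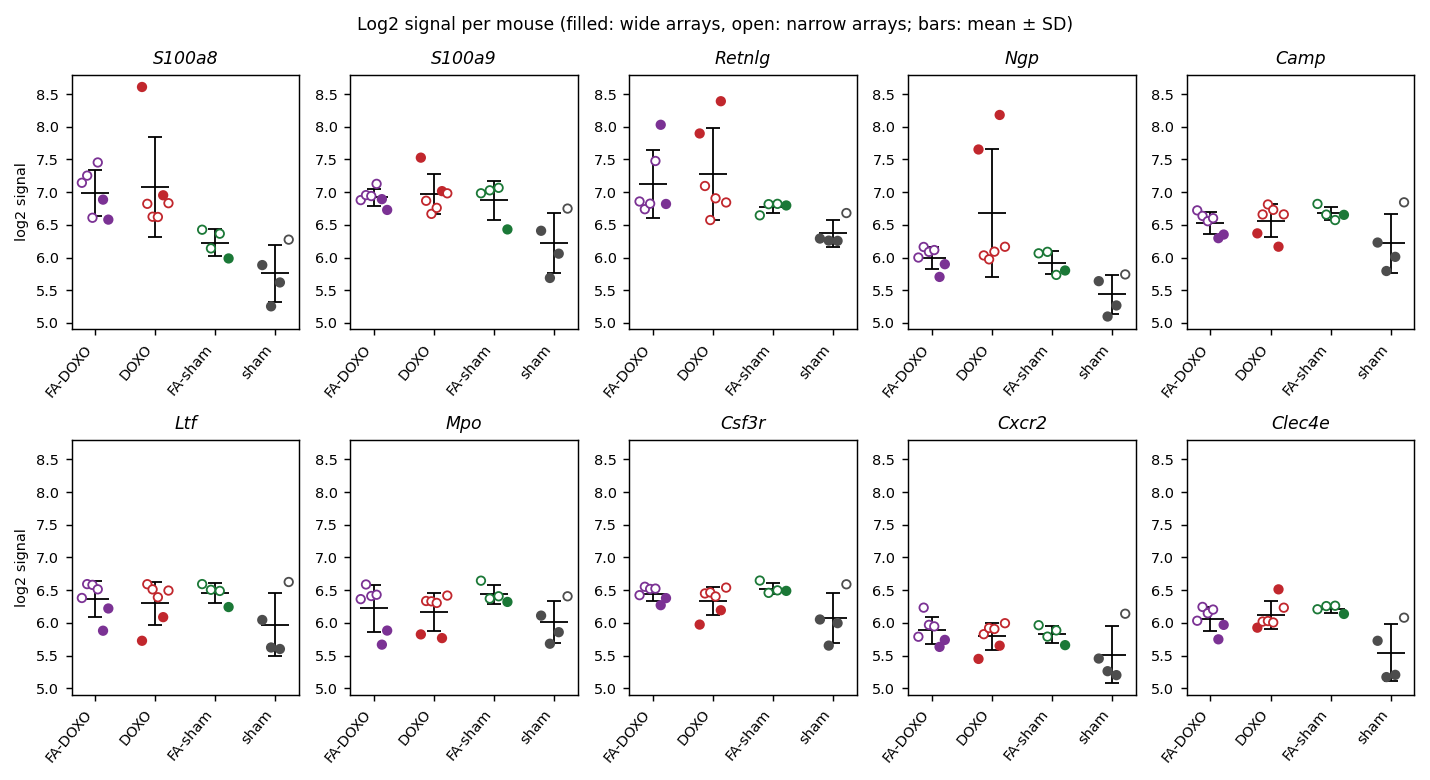
Log2 signal (y axis) of the 10 genes in each mouse by group (x axis), with filled points for wide and open points for narrow arrays and bars for the mean ± SD. S100a8 in FA-DOXO mice lies between 6.58 and 7.45 with no overlap with FA-sham mice, Ngp is high in DOXO mice 1 and 5 alone, and DOXO and sham mice overlap in all genes of the lower row.

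S100a9 codes for the partner subunit of calprotectin and lies beside S100a8. Its log2 signal was 6.73, 6.92 and 7.13 (lowest, median and highest) in FA-DOXO mice and 6.67, 6.93 and 7.53 in DOXO mice. It was 6.98, 7.03, 7.07 and 6.43 in FA-sham mice and 6.41, 5.69, 6.06 and 6.75 in sham mice. The sham mice were low, while 3 of the 4 FA-sham mice were as high as doxorubicin-treated mice, in contrast to S100a8. The FA-DOXO mean of 6.92 ± 0.13 (SD, n = 6) stood 0.04 (SE 0.19) above the FA-sham mean of 6.88 ± 0.30 (SD, n = 4; exact permutation p = 0.762, two-sided). The sign of that difference rests on FA-sham mouse 4, without which it was -0.11, and on narrow arrays it was -0.05. In percentile S100a9 averaged 70.8% in FA-DOXO, 68.4% in DOXO, 67.8% in FA-sham and 45.0% in sham mice.

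Ngp codes for neutrophilic granule protein, a cathelicidin-related protein of the specific granules in the mouse. In DOXO mice 1 and 5 its log2 signal was 7.65 and 8.18, and in the other 4 DOXO mice it was 5.97 to 6.16. FA-DOXO mice gave 5.70, 6.04 and 6.16 (lowest, median and highest), FA-sham mice 6.06, 6.09, 5.73 and 5.80, and sham mice 5.64, 5.10, 5.27 and 5.74. Ngp was thus a dim cluster in 18 mice and a bright one in 2, both with wide arrays. Its percentile was 82.9% and 85.1% in those 2 DOXO mice, and between 7.40% and 22.4% in the other 18 mice. DOXO mice averaged 6.68 ± 0.97 (SD, n = 6) and sham mice 5.44 ± 0.30 (SD, n = 4), a difference of 1.25 (SE 0.35), and the difference was 0.63 with the other 4 DOXO mice alone. Under FA no such mouse was seen. FA-DOXO mice averaged 5.99 ± 0.17 (SD, n = 6) and FA-sham mice 5.92 ± 0.18 (SD, n = 4), a difference of 0.07 (SE 0.35; exact permutation p = 0.524, two-sided).

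Retnlg codes for resistin-like gamma, a secreted protein of neutrophils and bone marrow in the mouse. It was high in the same 2 DOXO mice, at 7.90 in mouse 1 and 8.39 in mouse 5, while the other 4 DOXO mice had 6.57 to 7.09. In FA-DOXO mice 4 and 5 it was 7.48 and 8.03, while the other 4 FA-DOXO mice had 6.74 to 6.86. FA-sham mice had 6.65, 6.82, 6.82 and 6.80, and sham mice 6.29, 6.26, 6.26 and 6.68. High Retnlg thus occurred with doxorubicin both with and without FA, in 3 mice with wide arrays and 1 with a narrow array. FA-DOXO mice averaged 7.12 ± 0.52 (SD, n = 6) and FA-sham mice 6.77 ± 0.08 (SD, n = 4), a difference of 0.35 (SE 0.31; exact permutation p = 0.162, two-sided), with 4 of 6 FA-DOXO mice above all FA-sham mice.

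The mice with high values were not the same for each gene. S100a8 was highest among DOXO mice in mouse 1 (8.61), whereas in mouse 5 it was 6.95, close to the 6.62 to 6.83 of the other 4. Ngp and Retnlg were higher in mouse 5 than in mouse 1. FA-DOXO mouse 5, with Retnlg at 8.03, had Ngp at 5.70, the lowest of its group.

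**Figure D2:**
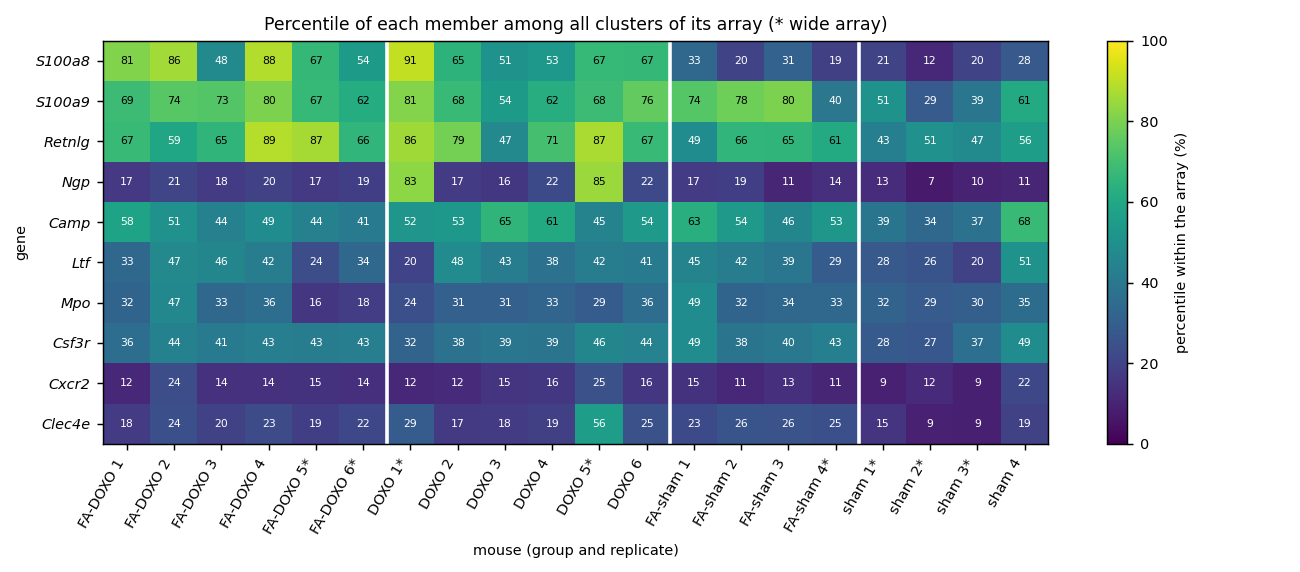
Percentile of each gene (rows) among all 34760 clusters of the same array, for each mouse (columns, ordered FA-DOXO, DOXO, FA-sham, sham), with wide arrays starred. S100a8 is at 48.0% or higher in the 12 doxorubicin-treated mice and at 33.4% or lower in the 8 mice given saline, and Ngp is at 82.9% and 85.1% in DOXO mice 1 and 5 and at most 22.4% elsewhere. Both genes were chosen on DOXO against sham, so these patterns are a description.

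Camp, Ltf and Mpo are granule genes whose groups overlapped in every comparison. Camp codes for cathelicidin, an antimicrobial peptide of specific granules, Ltf for the iron-binding protein lactoferrin of the same granules, and Mpo for myeloperoxidase, which makes hypochlorous acid and marks azurophil granules. Camp was 6.30, 6.58 and 6.72 (lowest, median and highest) in FA-DOXO mice and 6.17, 6.66 and 6.81 in DOXO mice, with 6.82, 6.66, 6.57 and 6.65 in FA-sham and 6.23, 5.79, 6.01 and 6.84 in sham mice. Sham mouse 4 was above all DOXO mice, so that the groups overlapped. Ltf was 5.88 to 6.59 in FA-DOXO, 5.73 to 6.59 in DOXO, 6.24 to 6.59 in FA-sham and 5.60 to 6.62 in sham mice. Mpo was 5.67 to 6.59 in FA-DOXO, 5.77 to 6.42 in DOXO, 6.32 to 6.64 in FA-sham and 5.68 to 6.41 in sham mice. In each of the 3 the sham mouse of highest signal was within or above the range of the DOXO mice. In FA-DOXO against FA-sham the differences were -0.15 (SE 0.17; exact permutation p = 0.171) for Camp, -0.10 (SE 0.21; exact permutation p = 0.600) for Ltf and -0.21 (SE 0.19; exact permutation p = 0.400) for Mpo.

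Csf3r, the receptor for the growth factor G-CSF that drives granulocyte output, and Cxcr2, the chemokine receptor through which neutrophils follow CXC chemokines, are surface receptors. Csf3r was 6.27 to 6.55 in FA-DOXO, 5.97 to 6.54 in DOXO, 6.46 to 6.65 in FA-sham and 5.65 to 6.59 in sham mice. Cxcr2 was 5.63 to 6.23 in FA-DOXO, 5.45 to 5.99 in DOXO, 5.66 to 5.96 in FA-sham and 5.20 to 6.14 in sham mice, at a percentile of at most 24.6% on any array. The groups of both receptors overlapped. FA-DOXO minus FA-sham was -0.08 (SE 0.15; exact permutation p = 0.257) for Csf3r and 0.06 (SE 0.17; exact permutation p = 0.667) for Cxcr2.

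Clec4e codes for Mincle, a C-type lectin receptor of neutrophils and macrophages for mycobacterial glycolipids and for a protein released by dead cells. Its values are a description in every comparison. They were 5.75, 6.09 and 6.24 (lowest, median and highest) in FA-DOXO mice, 5.93, 6.02 and 6.51 in DOXO mice, 6.21, 6.26, 6.26 and 6.14 in FA-sham mice and 5.73, 5.17, 5.20 and 6.08 in sham mice. All 4 FA-sham mice lay above all 4 sham mice, as did 4.22% of all clusters in that comparison. The sham mice of lowest Clec4e, 2 and 3, had wide arrays. FA-DOXO minus FA-sham was -0.16 (SE 0.16), DOXO minus sham 0.58 (SE 0.16), and the interaction -0.73 (SE 0.23). On narrow arrays alone DOXO minus sham was -0.01, with 4 DOXO mice against 1 sham mouse.

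In DOXO against sham, which chose the genes, all 10 differences were positive, between 0.15 (SE 0.19) for Mpo and 1.32 (SE 0.31) for S100a8. S100a8 and Ngp, 2 of the 10, had every DOXO mouse above every sham mouse, beside 0.213% of all clusters, and the same 2 did so in percentile, beside 0.273%. Without sham mouse 4 the count in log2 signal was 5, and without DOXO mouse 3 it was 4. The shares of all clusters without these mice were not computed, and the shares above hold for the full groups only. Sham mouse 4 had the only narrow array of its group and the highest sham signal in 10 of 10 genes, and its part in these differences was not tested. Over wide arrays (2 DOXO and 3 sham mice) DOXO minus sham was 2.58 for Ngp, 2.20 for S100a8, 1.88 for Retnlg, 1.22 for S100a9 and 0.85 for Clec4e. Over narrow arrays (4 DOXO mice and 1 sham mouse) it was 0.32 for Ngp, 0.45 for S100a8, 0.17 for Retnlg and 0.07 for S100a9. The other 6 genes were below 0 on narrow arrays, with Camp, Ltf and Csf3r at -0.13 each, Cxcr2 at -0.23, Mpo at -0.06 and Clec4e at -0.01, and Mpo was at -0.09 on wide arrays as well. With DOXO mice 1 and 5 left out, the mean of the other 4 stood above the sham mean by 0.97 in S100a8, 0.59 in S100a9, 0.48 in Retnlg and 0.33 in Mpo.

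In FA-DOXO against FA-sham, 0 of the 9 genes passed the unadjusted limma threshold of 0.01 and 0 passed an adjusted p of 0.05, beside 0.236% of all clusters higher and 0.0316% lower at the unadjusted threshold and 0.00288% past the adjusted one. At an unadjusted limma p under 0.05 the count was 1, S100a8, beside 1.25% of all clusters. Apart from S100a8 and Retnlg the 9 differences were between -0.21 and 0.07, with standard errors of 0.15 to 0.35. Even a change larger than its error can miss the threshold with 6 and 4 mice, as S100a8 did at 0.76 (SE 0.31).

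**Figure D3:**
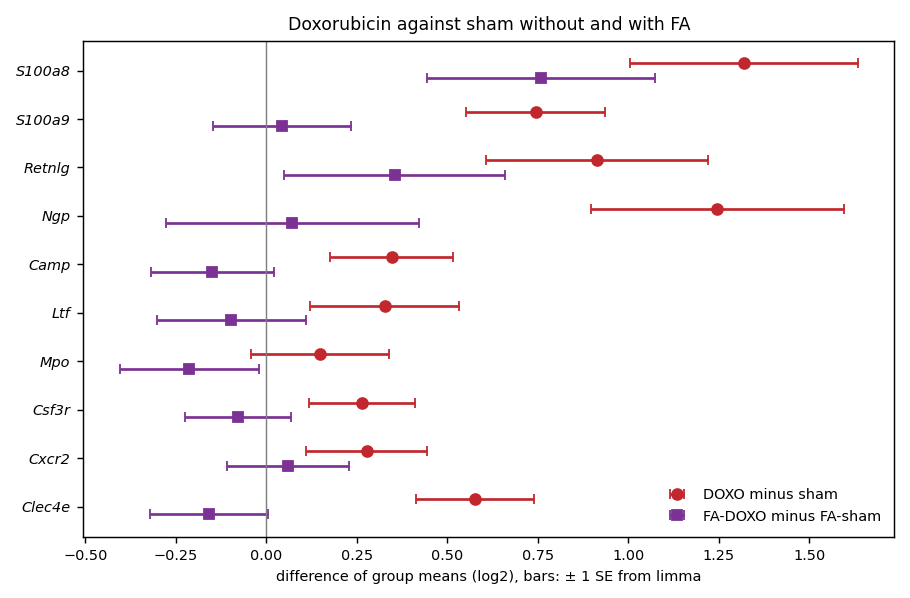
Difference of group means in log2 signal (x axis) for each gene (y axis), with bars of ± 1 SE from limma, for DOXO minus sham and FA-DOXO minus FA-sham. S100a8 is the gene with the largest difference in each, 1.32 and 0.76, whereas Ngp is at 1.25 without FA and 0.07 with FA.

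The remaining comparisons share mice with the one that chose the genes. In FA-DOXO against DOXO, Ngp was lower by a log2 difference of -0.69 (SE 0.31), and the other 9 genes were between -0.16 and 0.11. On narrow arrays 5 of the 10 turned sign, with Ngp at 0.03, S100a8 at 0.39, S100a9 at 0.16, Retnlg at 0.12 and Clec4e at 0.09. In FA-sham against sham all 10 differences were positive, between 0.31 for Cxcr2 and 0.67 for Clec4e, with S100a9 at 0.65 (SE 0.21). The sham group held 3 wide arrays and the FA-sham group 1, and on narrow arrays (3 FA-sham mice and 1 sham mouse) 4 of the 10 turned sign, Cxcr2 at -0.26, Camp at -0.16, Ltf at -0.10 and Csf3r at -0.06. The interaction was negative in all 10 genes, from -1.17 (SE 0.49) for Ngp to -0.22 (SE 0.24) for Cxcr2. On narrow arrays it was positive in 7 of the 10, with S100a8 at 0.35, Cxcr2 at 0.33, Ltf at 0.12, Csf3r at 0.10, Camp at 0.08, Retnlg at 0.04 and Mpo at 0.03, and only Ngp (-0.19), S100a9 (-0.12) and Clec4e (-0.08) stayed below 0.

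Set against the SD of the array, the genes formed a graded series. Pearson's correlation over 20 mice was -0.94 for Mpo, -0.93 for Ltf, -0.87 for Csf3r, -0.87 for Camp, -0.85 for Cxcr2 and -0.57 for Clec4e. It was -0.39 for S100a9, -0.08 for S100a8, 0.22 for Ngp and 0.33 for Retnlg. After group means were taken away it was -0.93 for Mpo, 0.08 for S100a8, 0.43 for Ngp and 0.63 for Retnlg. Within the FA-DOXO, DOXO and sham groups, Mpo, Ltf, Csf3r, Camp and Cxcr2 were lower on each wide array than on each narrow array of the group. S100a8 did not divide so in FA-DOXO and DOXO mice, whereas in FA-sham and sham mice its wide arrays held the lowest values. The points share the array from which both measures come, and the part of array spread in the members' differences was not tested beyond the values given for wide and narrow arrays.

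**Figure D4:**
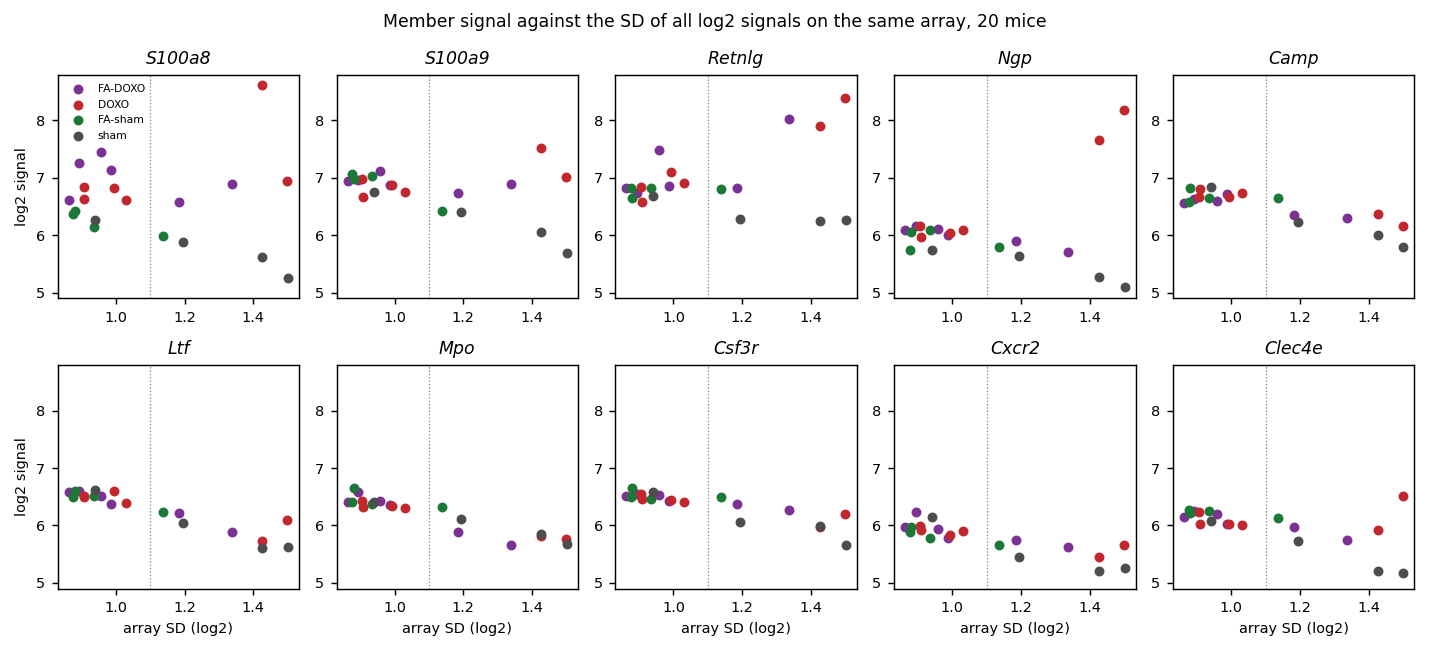
Log2 signal of each gene (y axis) against the SD of all log2 signals of the same array (x axis) in 20 mice, coloured by group, with a dotted line at 1.1 between narrow and wide arrays. Mpo and Ltf fall with the array SD (Pearson -0.94 and -0.93), while S100a8 does not (-0.08).

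Pairs of genes were compared over the 20 mice. The 6 pairs among S100a8, S100a9, Retnlg and Ngp had a median Pearson correlation of 0.69 over 20 mice (0.63 to 0.84), and the 15 pairs among the other 6 genes one of 0.84 (0.58 to 0.93). Between these sets the 24 pairs had a median of 0.18 (-0.35 to 0.76), with S100a9 and Clec4e at 0.76. On the percentile scale the medians were 0.57, 0.43 and 0.19. There Ngp and Clec4e had the highest value of all 45 pairs, 0.78, and Mpo and Clec4e had 0.03. The pairs share arrays, and a split made after seeing values is a description. The 6 clusters most like the mean of the 10 genes were Rnd1, Krt18, Ankrd45, Sprr1a, Ccl3 and Dpep2, with correlations of 0.92 to 0.94, and these clusters themselves had correlations of -0.51 to -0.79 with the array SD. After removal of the group means the closest was Hdc, the enzyme that makes histamine, at 0.94. Onecut2, Ankle1, Spdef, Nkpd1 and Gm48957 came next at 0.90 to 0.91. Over 20 mice Hdc had a correlation of -0.65 with the array SD, and the others had -0.73 to -0.88. By single gene, chosen after the values were seen, S100a8 was most like Ccdc192 (0.85) and Clec4d (0.84), S100a9 like Igsf23 (0.92) and Clec4d (0.91), Retnlg like Agt and Lcn2 (0.94 each) and Ngp like the chemokine gene Cxcl13 (0.96).

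Further genes of the same cells and pathways were taken from 9 lists, 116 genes with a cluster of their own that are not among the 10. In DOXO against sham 6 of the 116 were higher and 1 lower at an unadjusted limma p under 0.01, and 109 did not pass, beside 0.532% of all clusters higher and 0.515% lower. None of the 116 passed an adjusted p of 0.05 (limma, smallest adjusted p 0.647, 27 of 116 at an unadjusted p under 0.05), beside 0.00288% of all clusters past the adjusted threshold and 5.73% at an unadjusted p under 0.05. Their median difference was 0.19, against 0.10 over all clusters. The lists were drawn up with results of this comparison known.

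Clec4d, the partner receptor of Clec4e, had the smallest p of these genes, with 6.65 ± 0.16 in FA-DOXO and 6.74 ± 0.31 in DOXO (SD, n = 6 each), and 6.53 ± 0.20 in FA-sham and 6.05 ± 0.32 in sham mice (SD, n = 4 each). DOXO minus sham was 0.69 (SE 0.17), past the unadjusted but not the adjusted limma threshold. Every DOXO mouse lay above every sham mouse in Clec4d, 1 of 20 surface receptors with this division, beside 0.213% of all clusters. Of the specific and gelatinase granule genes 1 of 14 rose, the neutrophil collagenase Mmp8 at 0.54 (SE 0.15). Of the azurophil granule genes 1 of 8 rose, neutrophil elastase Elane at 0.32 (SE 0.11). Of 8 listed stefins, inhibitors of cysteine proteases, only 4 had a cluster of their own. Of these 4 stefins 1 rose, Stfa2 at 0.81 (SE 0.26), and the others on the list could not be read. Of the recruiting ligands and adhesion molecules 1 of 15 rose and 1 fell. These were Cxcl2, a ligand of Cxcr2, at 0.54 (SE 0.17), and Ppbp, a chemokine stored in platelets, at -0.58 (SE 0.18). Csf3, the ligand of Csf3r, was at 0.09 (SE 0.15) and did not pass. Of the factors of granulopoiesis 1 of 10 rose, Cebpd at 0.62 (SE 0.21), a C/EBP family member also made in the acute-phase response. Cebpe, which directs the specific granule genes, was at 0.34 (SE 0.20) and did not pass. Of the 13 receptors and adaptors of S100a8, S100a9 and Clec4e, Clec4d alone passed, with Tlr4 at 0.19 (SE 0.30). Of the surface receptors, which also hold Clec4d, 1 of 20 rose, and none of 15 in the S100 family or of 18 relatives of the other genes passed.

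In FA-DOXO against FA-sham 0 of the 116 passed the unadjusted threshold (limma, 0 at an unadjusted p under 0.05, beside 1.25% of all clusters), with a median difference of -0.06, against -0.04 over all clusters. Clec4d was at 0.12 (SE 0.17), Mmp8 at 0.11 (SE 0.15), Cxcl2 at -0.09 (SE 0.17) and Stfa2 at 0.07 (SE 0.26). Lcn2, the siderophore-binding protein of specific granules that many tissues make in the acute phase, was 6.57, 7.66 and 10.32 (lowest, median and highest) in FA-DOXO mice and 6.60, 7.76 and 11.73 in DOXO mice, while it was 6.08 to 6.50 in FA-sham and 6.30 to 6.52 in sham mice. Like S100a8 it had no overlap between doxorubicin-treated mice and their saline controls. It was the 1 such gene of the 14 of its list in each comparison, beside 0.371% of all clusters with FA and 0.213% without. Its differences of 1.55 (SE 0.87) in FA-DOXO against FA-sham and 2.25 (SE 0.87) in DOXO against sham did not pass the unadjusted limma threshold.

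Of the 8 neutrophil markers 2, Mmp8 and Elane, rose in DOXO against sham, beside 0.532% of all clusters higher at the unadjusted threshold. In FA-DOXO against FA-sham 0 did, beside 0.236%. All 8 were above 0 in DOXO against sham (median 0.32) and 3 of 8 in FA-DOXO against FA-sham (median -0.06). Of 15 markers of monocytes and macrophages, 5 of B cells, 11 of T and NK cells and 9 of mast cells, basophils and eosinophils 0 passed in either comparison. Of 6 platelet markers 1 fell in DOXO against sham, Ppbp, and of 5 erythroid markers 1 fell, beside 0.515% of all clusters lower. Of 12 cardiomyocyte markers 0 passed in either comparison, but all 12 had differences above 0 in FA-DOXO against FA-sham (median 0.73) and all 12 below 0 in DOXO against sham (median -1.01). Of 10 endothelial markers 0 passed, with all 10 above 0 in FA-DOXO against FA-sham (median 0.26) and all 10 below 0 in DOXO against sham (median -0.41). The 11 T and NK cell markers were all above 0 in DOXO against sham (median 0.22) and all below 0 in FA-DOXO against FA-sham (median -0.19). The cardiomyocyte and endothelial markers had median signals of 10.88 and 7.30, above the array medians. The neutrophil and the T and NK cell markers had 6.30 each. Bright clusters lie farther above the array median on wide arrays, and dim ones farther below. Wide arrays numbered 3 of 4 in sham, 2 of 6 in DOXO, 1 of 4 in FA-sham and 2 of 6 in FA-DOXO mice. The part of array spread in these signs was not tested, nor was the part of these markers in the S100a8 difference. The monocyte and macrophage markers had a mean signal of 6.74 to 7.73 in FA-DOXO, 6.81 to 7.56 in DOXO, 6.70 to 7.20 in FA-sham and 6.77 to 7.49 in sham mice. The cell that carries the S100a8 signal was not tested.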

How the data were processed

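RNA of 20 left ventricles was hybridized to Mouse Gene 1.0 ST arrays, 1 array per mouse. The values deposited by the authors are log2 signals per transcript cluster, made with R 2.14.2 and Bioconductor packages. Background correction and normalization are not given in the sources read, and array spread differed, which can enter every comparison. The 10 genes, the gene lists and the tests were chosen with earlier results of these data known.

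A model with a mean for each group was fitted to all 34760 clusters with limma 3.58.1 (R 4.3.3) over 20 arrays, with no filter and no covariate, at the study's unadjusted 0.01 and at a Benjamini-Hochberg adjusted 0.05. The fit was tried on residuals of these arrays, shuffled over mice, with known changes added. Such data do not keep the division of wide arrays between the groups, so the trial does not cover it. Exact permutation tests used all 210 divisions of 10 mice (SciPy 1.17.1). Named genes were the 10, up to 4 per list with the smallest p in DOXO against sham and up to 2 in FA-DOXO against FA-sham, and the 6 clusters most like the mean of the 10. Csf3, Tlr4, Ly6g and the clusters most like single genes are not covered by this rule (picked with their values known). Of the list genes that the rule allows, those not printed did not pass either test. Alternatives covered normalization, filters, weights, array spread, pairing and left-out mice. The number of arrays limits the precision.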

Additional observations from a re-analysis of the deposited data

Results flagged for a closer look

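Of 40 groups of 4 or 6 mice tested over the 10 genes, 4 held a mouse far from the others by Dixon's criterion, which chance meets in about 1 of 20 groups. S100a8 in DOXO mouse 1 was 8.61, and the next DOXO mouse had 6.95. S100a9 in FA-sham mouse 4, the wide array of its group, was 6.43, and the next had 6.98. Retnlg in FA-sham mouse 1 was 6.65, the lowest of its group, with the next at 6.80. Retnlg in sham mouse 4, the narrow array of its group, was 6.68, and the next had 6.29. Ngp in DOXO mice 1 and 5 was not marked, since 2 high mice stood near each other.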

How the results depend on the processing

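The count of the 9 genes past the unadjusted limma threshold in FA-DOXO against FA-sham was 0, and it was 1, S100a8, after quantile normalization, with array weights, with only the compared groups fitted, on narrow arrays, on percentiles and with DOXO mice 1 and 5 left out, where 0.57%, 3.29%, 0.495%, 1.7%, 0.852% and 0.388% of all clusters passed, in that order. The last 2 settings were chosen after seeing the data. The S100a8 difference was positive in each setting run, 0.67 to 0.84 when each FA-DOXO or FA-sham mouse was left out (unadjusted limma p 0.0201 to 0.0699). Its adjusted p was 0.205 or more except with array weights (0.0291), a fit that stopped before its tolerance. The S100a8 difference was 0.87 with a replicate block (unadjusted p = 0.0139). Replicate numbers did not pair the mice, with a mean correlation of deviations of -0.03 over 26 same-numbered pairs and 0.03 over 122 others.

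Genes with no overlap in DOXO against sham numbered 2, but 1 where only clusters above the median signal were kept, which leaves out Ngp, 5 on wide arrays, and 2 to 5 with single mice left out. In FA-DOXO against FA-sham the number was 1, and 3 on wide arrays (2 against 1 mouse). The shares of all clusters with no overlap were not computed for the settings with fewer mice. Groups of fewer mice separate more easily by chance, so these counts show no stronger separation. The 7 further genes past the threshold in DOXO against sham became 4 after quantile normalization (0.995% of all clusters) and with the replicate block (1.28%), 1 with the signal filter (0.788%) and with only the compared groups (0.273%), 0 on narrow arrays (0.578%), 22 with array SD as covariate (4.15%), 19 without DOXO mice 1 and 5 (10.2%), 103 with array weights (84.9%), and 2 to 24 with single mice left out. Those were 24 without sham mouse 4 (7.43%), 13 without DOXO mouse 1 (2.11%), 4 without DOXO mouse 5 (1.94%), 3 without sham mouse 1 (1.56%) and 2 without sham mouse 2 or 3 (0.394% and 0.46%). In FA-DOXO against FA-sham the 0 further genes became 3 with array weights, 2 on narrow arrays and on percentiles, and 1 with array SD as covariate (1.07%) or without DOXO mice 1 and 5. The cause was not tested.

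Of the 50 differences (10 genes in 5 comparisons) 23 turned sign on narrow arrays, 6 in DOXO minus sham, 1 in FA-DOXO minus FA-sham, 5 in FA-DOXO minus DOXO, 4 in FA-sham minus sham and 7 in the interaction. By other setting 4 turned on wide arrays, 7 each after quantile normalization, on percentiles and without DOXO mice 1 and 5, 6 with array SD as covariate, 5 with array weights, 2 after median centring, 1 with the replicate block and 0 to 4 with single mice left out. The turned values of the tested genes, and of differences above 2 SE over all arrays, were these. FA-DOXO minus FA-sham of Ngp was -0.019 with array SD as covariate, -0.0011 on wide arrays and -0.0022 with the replicate block. Ltf was 0.014 with that covariate and -0.17 to 0.00023 with single mice left out, Cxcr2 was -0.0096 to 0.11 and S100a9 -0.11 to 0.11 (-0.11 without FA-sham mouse 4), and S100a9 was -0.051 on narrow arrays. Also on narrow arrays, DOXO minus sham was -0.13 for Camp and -0.0079 for Clec4e, FA-DOXO minus DOXO was 0.026 for Ngp, FA-sham minus sham was -0.16 for Camp, -0.096 for Ltf and -0.056 for Csf3r, and the interaction of Camp was 0.075. Of the values per gene and setting, 1165 stayed within the spread or on the same side of the threshold, some with a turned sign. Another 69 moved by more than the spread. On percentiles, untested values were counted as moved where the sign turned and as unmoved where it did not. The dimness of Cxcr2, Ngp and Clec4e limits what changes could be seen. Mpo, Ltf and Csf3r were rather dim as well, at median percentiles of 32.3%, 40.2% and 40.4% over the 20 mice, and the same limit applies to them.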
